A study of Mus musculus with 4 samples.

Results

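The bone morphogenetic protein (BMP) pathway was followed in serum ESCs and 2i ESCs through 10 genes, namely the ligand Bmp4, the receptor Bmpr1a, the signal transducers Smad1, Smad5 and Smad4, the inhibitor Smad6, and the Id genes Id1, Id2, Id3 and Id4. They were chosen by symbol, through their Ensembl gene identifiers, and all 10 were among the 14533 genes of the expression table. RNA had been sequenced from mouse embryonic stem cells (ESCs) in 2 groups with 2 libraries each, 4 libraries in all. Serum ESCs had been kept for over 20 days in medium with fetal calf serum and the cytokine LIF. 2i ESCs had been kept as long in serum-free medium with LIF, the GSK3 inhibitor CHIR99021 and the MEK inhibitor PD0325901. The cells had been sorted, and both groups were labelled as late G1-phase cells, although the series' own design note names early G1-phase. No genetic change was named for either group, and the labels gave no cell line. The study describes sorting of cell-cycle phases in ESCs that carry FUCCI reporter transgenes, but does not name the line behind these libraries. The study presented these libraries as biological replicates, without saying whether they came from separate cultures, so the p-values below measure the spread between these libraries, which may be technical.

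BMP ligands bind type I and type II receptor kinases, and the type I receptor phosphorylates the receptor-regulated SMAD proteins SMAD1 and SMAD5. These join SMAD4, enter the nucleus and act on target genes, among which the Id genes are the best known. Id proteins are helix-loop-helix proteins without a DNA-binding region, and they hold bHLH transcription factors away from DNA. In serum cultures, BMP signals and Id genes are known to act with LIF in keeping ESCs undifferentiated.

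The sequences before the start of Bmp4 and of 3 Id genes are shown because Bmp4 and the Id genes carried the widest differences, between the groups or between replicates. They are RefSeq sequences of the build GRCm38.p6, the 250 bases before the annotated start, and the expression table itself used the build mm9, so these positions are not to be mixed with those given further on. Capitals mark GGCGCC, a motif known from BMP-responsive elements, and GTCT or its reverse complement AGAC, the core of the SMAD-binding element.

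Bmp4, chr14:46390670-46390919, minus strand: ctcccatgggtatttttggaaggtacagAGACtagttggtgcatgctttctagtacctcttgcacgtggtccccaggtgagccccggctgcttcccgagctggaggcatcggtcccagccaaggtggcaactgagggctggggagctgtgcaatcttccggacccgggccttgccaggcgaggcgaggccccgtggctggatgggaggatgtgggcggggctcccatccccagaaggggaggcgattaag

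Id2, chr12:25096093-25096342, minus strand: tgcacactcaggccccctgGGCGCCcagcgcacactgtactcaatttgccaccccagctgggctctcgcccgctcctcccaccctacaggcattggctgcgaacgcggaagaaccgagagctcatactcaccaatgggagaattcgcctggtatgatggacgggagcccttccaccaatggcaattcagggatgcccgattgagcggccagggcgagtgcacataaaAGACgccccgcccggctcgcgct

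Id3, chr4:136143572-136143821, plus strand: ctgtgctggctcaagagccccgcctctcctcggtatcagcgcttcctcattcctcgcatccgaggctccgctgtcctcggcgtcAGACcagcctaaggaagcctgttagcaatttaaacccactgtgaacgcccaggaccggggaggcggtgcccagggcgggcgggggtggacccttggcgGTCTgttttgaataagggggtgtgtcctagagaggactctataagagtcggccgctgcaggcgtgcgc

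Id4, chr13:48260866-48261115, plus strand: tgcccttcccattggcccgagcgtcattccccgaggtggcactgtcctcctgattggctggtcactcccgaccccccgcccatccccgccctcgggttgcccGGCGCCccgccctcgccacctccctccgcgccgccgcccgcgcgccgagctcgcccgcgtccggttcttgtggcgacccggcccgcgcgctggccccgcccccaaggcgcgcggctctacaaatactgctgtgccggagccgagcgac

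A promoter entry was held for 8 of the 10 genes (10 entries in all), and Id1 and Smad4 had none. GGCGCC was found before Bmpr1a, Smad5, Id2 and Id4, that is in 4 of the 8, while 9.59% of all 32851 promoters held it. GTCT or AGAC was found before 5 of the 8 (Bmp4, Smad5, Smad6, Id2 and Id3), beside 82.9% of all promoters, so a match of this short motif sets a promoter little apart. The search covered both strands and 8 motifs, and the 2 marked motifs and the 4 printed genes were chosen after the matches had been seen. Of the other 6, GGAGCC or GGCTCC was before 6 genes (26.0% of all promoters), CCAAT or ATTGG before 5 (33.8%), GGCGTC or GACGCC before 3 (8.40%) and CACGTG before 1 (6.02%). Neither TATAAA nor TTTATA was before any of the 8 (12.4%), nor was GTCTAGAC, which overlaps GTCT (0.167%). A match describes the letters of the sequence and is no evidence of binding.

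All values below are normalized counts, gene counts that the authors divided by a size factor per library, and differences are log2 fold changes of serum over 2i with their standard error (SE). The libraries held between 18939401 and 26570098 whole reads, with a share from protein-coding genes of 46.9% and 76.3% in serum and 57.8% and 66.3% in 2i, replicate 1 first. ESC markers (Pou5f1, Sox2, Nanog, Esrrb, Zfp42, Sall4, Utf1) were present in every library, 7 of 7, and summed to between 41535 and 53829. Of the markers of other cells, 4 of 7 primitive endoderm genes were in the table (sums of 1409 to 2286 in serum and 1662 to 1790 in 2i), 2 of 8 fibroblast genes (193 to 230 and 58.2 to 199), 3 of 6 mesoderm genes (198 to 276 and 294 to 306) and 2 of 6 trophoblast genes. The trophoblast sum was 203 and 97.2 in serum, against 2463 and 103 in 2i, and 2i replicate 1 stood apart, mostly through Elf5. Krt7, the other trophoblast gene in the table, was also highest there, with 248, against 17.5 in 2i replicate 2 and 85.0 and 16.5 in serum. Most of the primitive endoderm sum was Lama1, which overlapped between the groups, and the other 3 genes were higher in both 2i libraries. Gata4, a transcription factor of the primitive endoderm, had 13.0 and 42.8 in serum, against 152 and 169 in 2i (log2 fold change -2.70, adjusted p 0.753 in limma), Gata6 had 5.0 and 16.5 against 87.2 and 27.2, and Sox17 had 7.0 and 7.8 against 33.2 and 33.0. Gata4 (mean 27.9 in serum and 160 in 2i) and Gata6 (10.8 and 57.2) entered the limma test only through their 2i means. The filter thus favoured this direction for both genes, and Sox17 was not tested. The paper also set a minimum of reads in either serum or 2i before its own test. Whether the expression table was cut in this way is not stated, so markers missing from it are no evidence of absence. None of the markers in the table was at 0 in any library, and the part that other cells had in the results below was not tested. In RNA from bulk cells, fewer cells that express a gene and less RNA per cell cannot be told apart.

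Bmp4 and Id1 were the 2 genes of the set that stood furthest apart between serum ESCs and 2i ESCs. Of the 10 genes, 5 (Bmp4, Bmpr1a, Smad4, Smad5 and Id1) were higher in both serum libraries than in both 2i libraries, 2 (Smad1 and Smad6) were higher in both 2i libraries, and 3 (Id2, Id3 and Id4) overlapped. Among all 13005 genes tested, 20.5% were without overlap higher in serum and 19.4% higher in 2i. No gene of the set passed the limma test at an adjusted p under 0.05 with a change of at least 2-fold, and of all 13005 genes only 2 (0.0154%) did. Both are copies of the spliceosomal RNA U1, listed at 0 in serum and singled out after their values had been seen. At an unadjusted p under 0.05 with a 2-fold change in either direction, 2 of 10 passed, Bmp4 and Id1, against 5.97% of all genes. With DESeq2, the tool of the study, on the whole reads recovered from the normalized counts, Bmp4 and Id1 passed at an adjusted p under 0.05 and 2-fold, 2 of 10, against 1.93% of all genes. The quasi-likelihood test of edgeR on the same reads called 0 of the 10 and 0 of all genes.

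**Figure D1:**
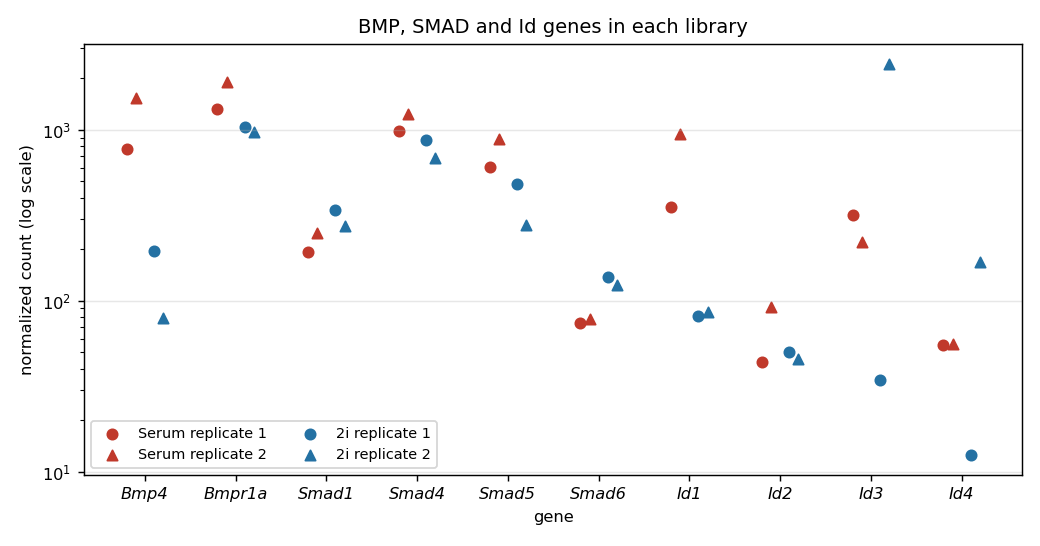
Normalized count (log axis) of each of the 10 genes in each library, with circles for replicate 1, triangles for replicate 2, red for serum and blue for 2i. Both serum points lie above both 2i points for Bmp4 (772 and 1533 against 196 and 79.5) and Id1 (352 and 942 against 81.0 and 86.3), while the 2i points of Id3 lie at 34.3 and 2443.

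Bmp4 (ENSMUSG00000021835, mm9 chr14:47003195-47010344, minus strand), the ligand of the set, had normalized counts of 772 and 1533 in serum ESCs and of 196 and 79.5 in 2i ESCs. Both serum libraries were high and both 2i libraries low, and the lower serum library lay 3.94-fold above the higher 2i library. The log2 fold change was 3.11 ± 0.63 (SE, 95% interval 1.59 to 4.63), a fold of 8.64, with an adjusted p of 0.753 in limma. Its unadjusted p was 0.00218 in limma. Benjamini-Hochberg adjustment can give genes with different unadjusted p the same value. For this reason 0.753 recurs for Id1 and Smad5 (unadjusted p 0.00370 and 0.0936 in limma). DESeq2 gave 3.03 ± 0.72 (SE) with an adjusted p of 0.00335, and edgeR an adjusted p of 0.692. Only 2.99% of the genes tested had a larger difference in either direction. On the log2 scale, replicate 2 minus replicate 1 was 0.99 in serum and -1.29 in 2i. The counts rest on 772, 1577, 189 and 82 whole reads. Exons of Gm15217, on the other strand, share 89 bases with Bmp4, and since no source used here says whether counting used the strand, reads from these bases cannot be assigned.

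Bmp4 was 1 of 3 ligand genes in the table, of 14 in the ligand list. Bmp7, a ligand that signals through the same SMADs, had 128 and 36.9 in serum, against 376 and 166 in 2i, higher in both 2i libraries (log2 fold change -1.84 ± 0.82 SE, adjusted p 0.753 in limma). Bmp8a had 33.0 and 17.5 in serum, against 39.4 and 76.6 in 2i (log2 fold change -1.16). Bmp8a entered the test only through its 2i mean (58.0, against 25.3 in serum), so the filter favoured this direction. Thus the 3 measured ligands did not share a direction, with 1 higher without overlap in serum and 2 higher in 2i, and none passed the limma test. Per kilobase of exon and within each library, Bmp4 was 10.9 and 75.0 times Bmp7 in serum ESCs and 0.943 and 0.867 times Bmp7 in 2i ESCs, so that the level of Bmp4 lay above that of Bmp7 in serum and slightly below it in 2i. This ratio and those that follow were picked after the values had been seen and are given without a test.

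Bmpr1a (ENSMUSG00000021796, mm9 chr14:35223920-35316527, minus strand), which encodes the type I receptor kinase for BMP2 and BMP4, had 1323 and 1917 in serum, against 1036 and 968 in 2i. Its groups lay close together, and the lower serum library was 1.28-fold above the higher 2i library. The log2 fold change of 0.67 ± 0.44 (SE, 95% interval -0.39 to 1.73) had an adjusted p of 0.759 in limma. After a correction for GC content and length, added once the data had been seen, it was 0.27. Bmpr1a has 41.3% GC, and the median log2 fold change over all genes ran from 0.38 in the fifth with the lowest GC content to -0.33 in the fifth with the highest.

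Among the 8 receptor and co-receptor genes in the table, of 11 in the list, 2 were higher in both serum libraries, 2 higher in both 2i libraries and 4 overlapped, with a median log2 fold change of 0.06 and none called by limma. Acvr2a, a type II receptor, had 312 and 641 in serum, against 283 and 262 in 2i. Acvr1, another type I receptor for BMPs, had 51.0 and 52.5 in serum, against 114 and 87.3 in 2i. Bmpr2, the type II receptor dedicated to BMPs, overlapped with 191 and 304 in serum, against 332 and 96.0 in 2i. The level of Bmpr1a per kilobase was 3.82 and 3.48 times that of Bmpr2 in serum, 1.72 times in 2i replicate 1 and 5.57 times in 2i replicate 2.

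Smad1 and Smad5, the receptor-regulated SMADs of the BMP branch, did not lie on the same side. Smad5 (ENSMUSG00000021540, mm9 chr13:56804371-56843738, plus strand) had 603 and 879 in serum, against 484 and 277 in 2i. Its lower serum library was 1.25-fold above the higher 2i library, and the log2 fold change was 0.99 ± 0.50 (SE, 95% interval -0.22 to 2.20, adjusted p 0.753 in limma). Smad1 (ENSMUSG00000031681, mm9 chr8:81862294-81923417, minus strand) had 193 and 248 in serum, against 339 and 274 in 2i, with the lower 2i library 1.10-fold above the higher serum library. Its log2 fold change was -0.48 ± 0.48 (SE, 95% interval -1.64 to 0.69, adjusted p 0.813 in limma). With the correction for GC content and length, Smad5 was at 0.71 and Smad1 at -0.39, both smaller differences. Within each library, the level of Smad5 per kilobase was 2.45 and 2.78 times that of Smad1 in serum ESCs and 1.12 and 0.795 times in 2i ESCs. The 2 serum ratios were both above the 2 ratios of 2i ESCs.

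Smad4 (ENSMUSG00000024515), the partner shared by the BMP and the TGF-beta branches, had 990 and 1232 in serum, against 873 and 685 in 2i. Its groups were separate by a factor of 1.13, and the log2 fold change of 0.51 ± 0.43 (SE, 95% interval -0.53 to 1.56) had an adjusted p of 0.778 in limma. Smad6 (ENSMUSG00000036867, mm9 chr9:63800953-63869866, minus strand), an inhibitory SMAD that is itself a BMP target, had 74.0 and 77.8 in serum, against 138 and 123 in 2i. Both 2i libraries were above both serum libraries, by at least 1.58-fold, and the replicates of each group lay close together. The log2 fold change was -0.77 ± 0.63 (SE, 95% interval -2.29 to 0.74) with an adjusted p of 0.774 in limma, and with the correction for GC content and length it was -0.29. Smad6 has 61.8% GC, the highest of the 10 genes.

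Of the 8 SMAD genes, all in the table, 7 were tested, and 3 of these were higher in both serum libraries, 3 higher in both 2i libraries and 1 overlapped, around a median of 0.23. Smad7, the other inhibitory SMAD, overlapped with 1239 and 1835 in serum, against 1571 and 1052 in 2i. Its level per kilobase was 11.6 and 16.4 times that of Smad6 in serum and 7.89 and 5.92 times in 2i. Smad3, which serves the TGF-beta, activin and Nodal branch, had 369 and 212 in serum, against 601 and 491 in 2i (log2 fold change -0.95), and Smad2 of the same branch had 612 and 850 in serum, against 588 and 612 in 2i, with the lower serum library and the higher 2i library nearly equal (log2 fold change 0.27).

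Id1 (ENSMUSG00000042745, mm9 chr2:152561987-152563146, plus strand) had 352 and 942 in serum ESCs and 81.0 and 86.3 in 2i ESCs. Both serum libraries were high, and the lower of them lay 4.08-fold above the higher 2i library. The 2i replicates were nearly equal, with a difference of 0.09 on the log2 scale, whereas the serum replicates differed 2.67-fold. The log2 fold change was 2.77 ± 0.62 (SE, 95% interval 1.27 to 4.27), a fold of 6.82, with an adjusted p of 0.753 in limma and 0.692 in edgeR. DESeq2 gave 2.92 ± 0.70 (SE) with an adjusted p of 0.00389. A larger difference in either direction was found in 3.89% of the genes tested.

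**Figure D2:**
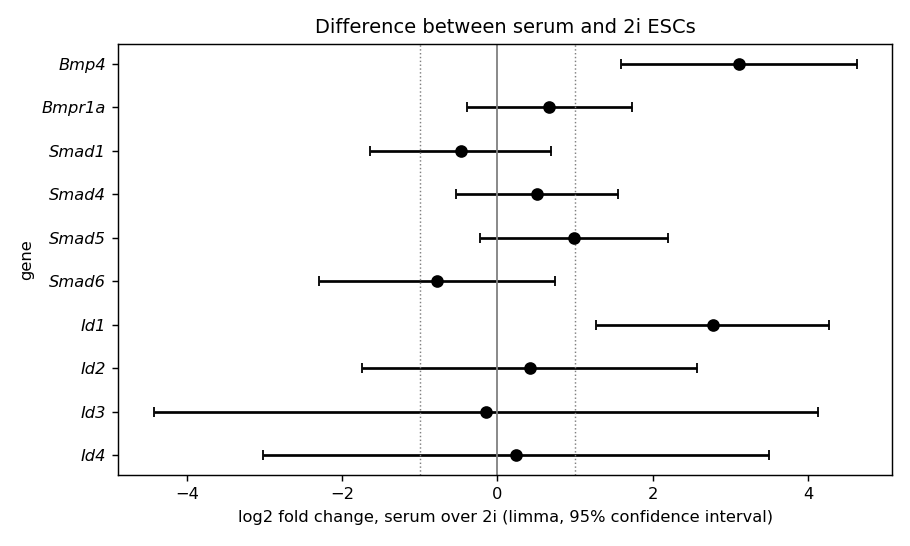
Log2 fold change of serum over 2i for each of the 10 genes (points) with its 95% confidence interval from limma (bars), with dotted lines at a 2-fold change. The intervals of Bmp4 (1.59 to 4.63) and Id1 (1.27 to 4.27), which are not adjusted for the number of genes, lie above 0, and those of the other 8 genes include 0.

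Id3 (ENSMUSG00000007872, mm9 chr4:135699412-135701670, plus strand) had 316 and 220 in serum ESCs and 34.3 and 2443 in 2i ESCs. One 2i library was thus the lowest and the other the highest of the 4. The 2i replicates differed 69.3-fold (6.12 on the log2 scale), and 2.69% of the genes tested, 350 genes, differed more between these replicates, while the serum replicates differed 1.44-fold. The log2 fold change of -0.15 ± 1.77 (SE, 95% interval -4.43 to 4.13, adjusted p 0.988 in limma) therefore leaves the direction undetermined. Leaving out 2i replicate 2 gave 2.91 (adjusted p 0.616 in limma), and leaving out 2i replicate 1 gave -3.21 (adjusted p 0.421). The 2i values rest on 33 and 2519 whole reads.

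Id4 (ENSMUSG00000021379, mm9 chr13:48356796-48359405, plus strand) likewise had its lowest and its highest value in the 2i libraries, with 55.0 and 55.4 in serum, against 12.5 and 169 in 2i. The serum replicates were nearly equal, and the 2i replicates differed 12.6-fold, a difference that 5.81% of the genes tested exceeded. Its log2 fold change was 0.23 ± 1.35 (SE, 95% interval -3.02 to 3.49, adjusted p 0.975 in limma). Leaving out 2i replicate 2 gave 2.06 and leaving out 2i replicate 1 gave -1.59. The low value rests on 12 whole reads, and the noncoding gene A330033J07Rik on the other strand shares 171 exon bases with Id4.

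Id2 (ENSMUSG00000020644, mm9 chr12:25778666-25780957, minus strand) was low in every library, with 44.0 and 92.3 in serum, against 49.8 and 45.6 in 2i. Serum replicate 1 was the lowest and serum replicate 2 the highest, so the groups overlapped. The log2 fold change was 0.41 ± 0.90 (SE, 95% interval -1.75 to 2.57, adjusted p 0.925 in limma), and without serum replicate 2 it was -0.11. The 4 Id genes thus had 3 different patterns over the libraries, with Id1 higher in serum, Id2 low in all, and Id3 and Id4 apart between the 2i replicates.

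**Figure D3:**
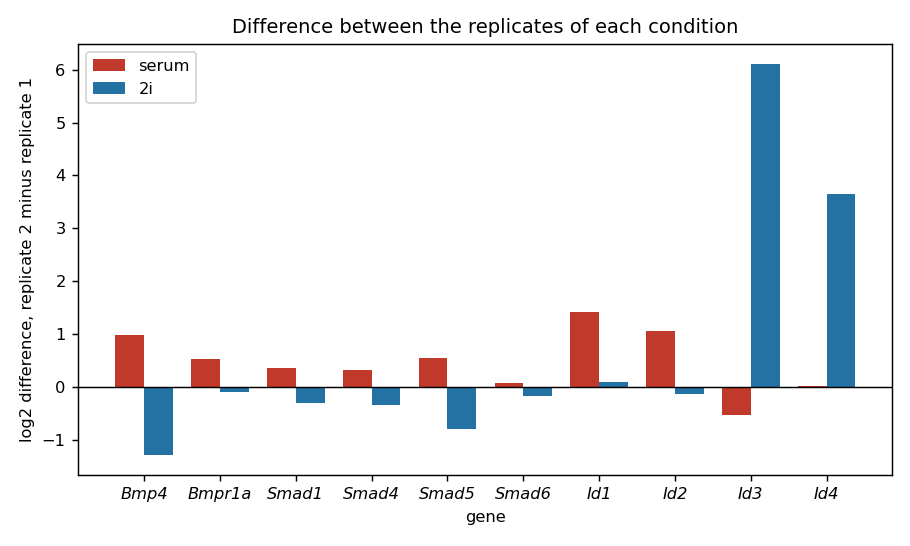
Log2 difference of replicate 2 minus replicate 1 in serum (red bars) and 2i (blue bars) for each of the 10 genes. The 2i replicates differ by 6.12 for Id3 and 3.66 for Id4, while the other 8 genes differ by at most 1.42 in either group, the value of Id1 in serum.

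The large replicate differences did not extend to the whole set. The median size of the difference between replicates was 0.53 in serum and 0.33 in 2i over the 10 genes, beside 0.53 and 0.76 over all genes tested. Within the 2i replicates, the trophoblast gene Elf5 had 2215 and 85.4, and the trophoblast gene Krt7 had 248 and 17.5. Thus 2i replicate 1 was low in Id3 and Id4 and high in Elf5 and Krt7. The ESC markers did not share a direction between the 2i replicates. Pou5f1 (8452 and 20050 in 2i, against 8653 and 9858 in serum) and Zfp42 were higher in 2i replicate 2. Sox2, Nanog, Esrrb, Sall4 and Utf1 were higher in 2i replicate 1. Whether these values belong together was not tested.

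Levels of different genes were compared per kilobase of exon. In serum ESCs the order of mean levels was Id1, Bmp4, Smad4, Bmpr1a, Id3, Smad5, Id2, Smad1, Id4 and Smad6. Id1 had 304 and 812 normalized counts per kilobase and Bmp4 had 347 and 689, so these neighbours overlapped. Smad4 (267 and 332) and Bmpr1a (208 and 302) overlapped as well, as did Id2 (34.7 and 72.7) with Smad1 (33.2 and 42.6) and Smad1 with Id4 (33.1 and 33.4), while the other neighbours in this order did not overlap. In 2i ESCs Smad4 (235 and 184) and Bmpr1a (163 and 152) had the highest levels of replicate 1 and followed Id3 (19.1 and 1364) in replicate 2. Id1 had 69.8 and 74.4 there, and Bmp4 had 88.2 and 35.8, a range that held Id1, Smad5 (65.2 and 37.4), Smad1 (58.4 and 47.0), Smad6 (44.0 and 39.3) and Id2 (39.2 and 35.9). Id1 and Bmp4 thus had the 2 highest levels of the set in each serum library, and lay below Smad4 and Bmpr1a in each 2i library.

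**Figure D4:**
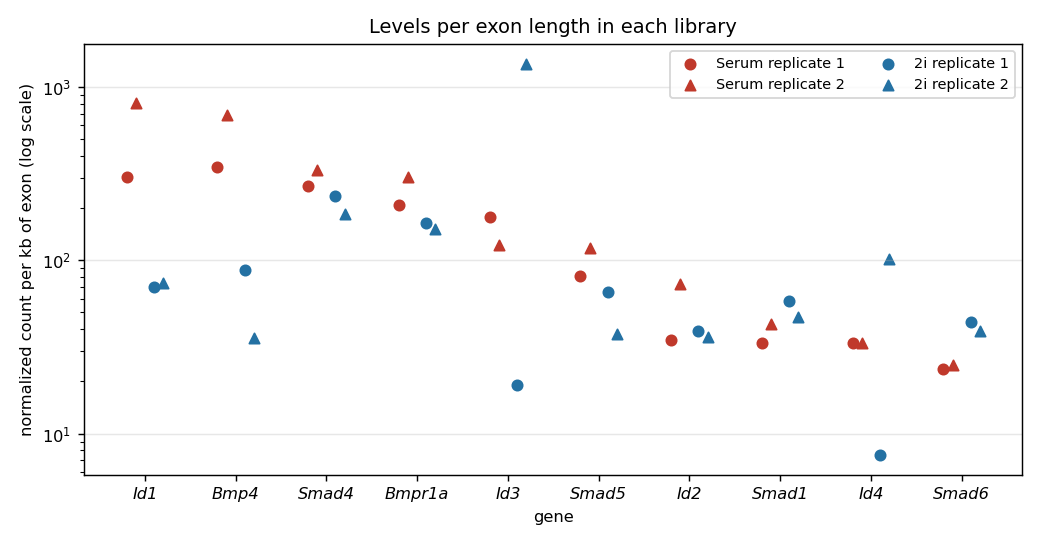
Normalized count per kilobase of exon (log axis) of each gene in each library, ordered by the mean in serum, with circles for replicate 1, triangles for replicate 2, red for serum and blue for 2i. Id1 (304 and 812) and Bmp4 (347 and 689) head the order in serum and lie at 69.8 and 74.4 and at 88.2 and 35.8 in 2i, and Id3 spans 19.1 to 1364 within 2i.

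Within single libraries the makeup of the Id family also differed. Id1 was 1.72 and 6.62 times Id3 per kilobase in the serum libraries, 3.65 times in 2i replicate 1 and 0.0546 times in 2i replicate 2, so that Id3 exceeded Id1 in that library alone. Id1 was 8.76 and 11.2 times Id2 in serum and 1.78 and 2.07 times Id2 in 2i. The sum of the 10 genes, not scaled by length, was 4722 and 7195 in serum, against 3244 and 5151 in 2i. These sums overlapped, and Id3 alone made up 2443 of the 5151 in 2i replicate 2.

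The pathway around these genes was described with lists of ligands, receptors, antagonists, SMADs, SMAD regulators and target genes, 79 genes together, of which 51 were in the table and 45 were tested. In these 45 genes, 13 were higher in both serum libraries, 8 higher in both 2i libraries and 24 overlapped, against 20.5% and 19.4% of all genes without overlap in these directions. These shares apply to the counts of each list as well. The 45 genes lay around a median log2 fold change of 0.19, beside 0.0047 over all genes tested. Limma called 0 of the 45, while 2 (Bmp4 and Id1) passed at an unadjusted p under 0.05 and 2-fold, against 5.97% of all genes, the same number as with DESeq2, and edgeR called 0. Without the 10 genes, 35 were tested, 8 of them higher in serum and 6 in 2i, around a median of 0.08. The 10 genes themselves had a median of 0.46, with 7 positive and 3 negative values. With the correction for GC content and length, their median was 0.33, beside 0.099 over all genes tested. The lists and the 10 genes were drawn up with earlier results of these data known, and these counts are a description.

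The SMAD regulators, which degrade, dephosphorylate or bind SMAD proteins, had 6 of 16 tested genes higher in both serum libraries, none higher in both 2i libraries and 10 overlapping, around a median of 0.45. Over all genes the shares were 20.5% higher in serum and 19.4% higher in 2i. Skil, a corepressor that binds SMADs, had 942 and 2796 in serum, against 884 and 579 in 2i (log2 fold change 1.18, adjusted p 0.753 in limma). Zfp423, a zinc finger partner of SMAD1, overlapped with 450 and 980 in serum, against 494 and 61.1 in 2i (log2 fold change 1.92). All 4 tested antagonists overlapped, Twsg1, Chrd, Fst and Bambi. Bambi, a decoy receptor and BMP target, had 120 and 121 in serum, against 111 and 303 in 2i.

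Of the 18 BMP target genes, 13 were in the table and 10 tested, with 1 (Id1) higher in both serum libraries, 2 (Smad6 and Msx1) higher in both 2i libraries and 7 overlapping, around a median of 0.16. Msx1, a homeobox gene, had 18.0 and 5.83 in serum, against 37.4 and 66.9 in 2i, all low counts. It entered the test only through its 2i mean (52.2, against 11.9 in serum), so the filter fixed its direction. Dusp9, an ERK phosphatase, overlapped with 1224 and 2312 in serum, against 2575 and 983 in 2i. Id1 was the only one of the 10 tested targets whose serum libraries both exceeded its 2i libraries, beside 20.5% of all genes tested. Among the bHLH partners that Id proteins bind or act beside, 1 of 5 tested genes did not overlap between the groups. Over all genes tested, 20.5% were without overlap higher in serum and 19.4% higher in 2i. The 1 partner without overlap was Hes1, a bHLH repressor, with 519 and 527 in serum, against 876 and 963 in 2i (log2 fold change -0.81, adjusted p 0.753 in limma). The E protein genes Tcf3 and Tcf4 overlapped, with 1082 and 568 in serum, against 1017 and 1142 in 2i for Tcf3, and 683 and 566 against 746 and 370 for Tcf4.

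**Figure D5:**
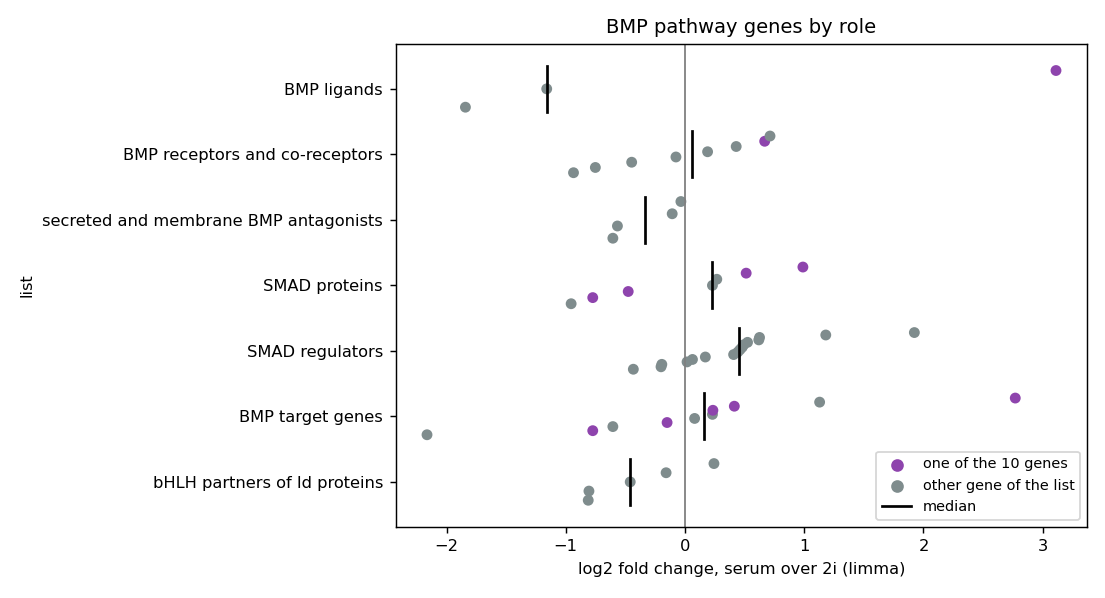
Log2 fold change of serum over 2i (limma) of every tested gene of each list, in purple for the 10 genes and in grey for the others, with the median of a list as a black line. Bmp4 (3.11) and Id1 (2.77) are the points furthest to the right, and the medians of the lists lie between -1.16 (ligands) and 0.45 (SMAD regulators).

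The genes whose pattern over the 4 libraries was most like that of Bmp4, by the distance between log2 values centred on each gene's mean, were Ogn (distance 0.25), Ccnd2 (0.27), E2f8 (0.44), Chrna9 (0.51) and Igsf9 (0.55). Among those most like Id1 were Pdzd4 (0.49), Gm16957 (0.49), Fam169a (0.53) and Gm3150 (0.54). Neither list held a gene of the BMP lists. With 4 libraries in 13005 genes, small distances are found for many patterns, and no test was made of them.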

How the data were processed

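RNA was sequenced after removal of ribosomal RNA and priming at random positions. The authors used Bowtie for alignment against mm9, estimated expression with MMSeq and divided counts by DESeq2 size factors. The deposited values are this signal, gene counts per size factor. All values were whole multiples of 1 step per library (tolerance 0.001), so whole reads were recovered. For serum replicate 1 this step lies within 0.1% of 1. Strand use in counting is not given in the sources used here. Positions and exon lengths came from GENCODE vM1, which describes mm9 and held 14462 of 14533 genes.

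Each gene with a mean of at least 50 in either group entered a fit of log2(normalized count + 1) by limma 3.58.1 under R 4.3.3, using a variance trend, no replicate term and Benjamini-Hochberg adjustment over 13005 genes. Fold changes on this scale understate those of low genes. A call needed an adjusted p under 0.05 and a 2-fold change. Scripts were tested on simulated data. The exact permutation test cannot go below a two-sided p of 0.333 with 2 libraries against 2 and was not used. DESeq2 1.42.0 and edgeR 4.0.16 on whole reads, other pseudocounts, filters and scalings, a replicate block, and a correction for GC content and length (mgcv 1.9.3, 11818 genes, chosen after seeing the data) were alternatives. All 10 genes were named, and other genes from the lists or, in pattern, as the 5 most alike, of which 1 is not reported here. The 10 genes and the lists were chosen with earlier results of these data known.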

Additional observations from a re-analysis of the deposited data

How the results depend on the processing

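Bmp4 and Id1 kept their direction in every alternative run, with log2 fold changes of 2.99 to 3.42 and 2.65 to 3.20 where all 4 libraries were used. DESeq2 called 2 of the 10 genes (Bmp4 at 3.03 and Id1 at 2.92), with 73 genes of the table higher in serum and 178 higher in 2i. It gave -2.21 for Id3, against -0.15 in limma, and turned Id4 to -0.72. edgeR called 0 higher in 2i, gave -2.21 for Id3 and turned Id4 to -0.73. Samples of the 2 groups share replicate numbers, and the differences between replicates correlated across genes (r = 0.480, genes are not independent), but 2 pairs do not show that the numbers pair the samples. A replicate block called 2 of the 10 (Bmp4 at 3.11, adjusted p 0.00234, and Id1 at 2.77, adjusted p 0.0136, in limma), with 44 genes higher in serum and 159 in 2i, against 0 and 2 without it. With the correction for GC content and length, 0 genes were higher in 2i and Id3 was 0.27. The replicate block with this correction lost both of its calls in the set (0 of 10, adjusted p 0.119 in limma for Bmp4 at 3.42 and for Id1 at 3.20), called 1 gene higher in serum and 3 in 2i, and had Id3 at 0.27. Limma without a trend called 1 gene higher in 2i, and a filter at a mean of 200 called 4, left Smad6, Id2 and Id4 without a value and gave the wider BMP list a median of 0.42. Upper quartile scaling moved the median of all genes to -0.12. Leaving out 1 library, with the spread taken from the other 3, called 0 to 0 genes in either direction and 0 to 0 of the 10. The ranges were 2.47 to 3.76 for Bmp4, 0.40 to 0.94 for Bmpr1a, -0.66 to -0.30 for Smad1, 0.34 to 0.69 for Smad4, 0.59 to 1.39 for Smad5, -0.86 to -0.69 for Smad6, 2.06 to 3.48 for Id1, -0.11 to 0.94 for Id2, -3.21 to 2.91 for Id3 and -1.59 to 2.06 for Id4. The median of the 10 genes ran from 0.29 to 0.80 and that of the wider BMP list from 0.030 to 0.38. The cause of these changes was not tested.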
